A study of Mus musculus with 6 samples.

Results

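The ion channels described here are 10 genes whose products open, or change their activity, when a cell membrane is pressed or stretched: *Piezo1*, *Piezo2*, *Trpv1*, *Trpv2*, *Trpv4*, *Kcnk2*, *Kcnk4*, *Kcnk10*, *Tmem63a* and *Tmem63b*. They were found by their symbols, and all 10 were present among the 31169 genes of the count table. Whole retina of C57BL/6 mice was collected at 2 months of age, 4 weeks after an intracameral injection at 1 month of age. The 3 saline-injected retinas received 1 μl of saline, and the 3 microbead-injected retinas received 1 μl of 15 μm microbeads. The beads obstruct the outflow of aqueous humor and elevate intraocular pressure (IOP), so the comparison asks whether the mRNA of pressure-sensitive channels differed after a month of elevated IOP. No retina carried a transgene or any other treatment, and the injection acts on the whole eye and not on one retinal cell type. Each library has a tag number of its own in the sample records, but these do not say whether it marks a separate animal, so the tests measure the spread between these libraries.

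Pressure in the eye reaches retinal cells as stretch, compression and swelling, and mechanosensitive channels turn such forces into ion flux. Piezo channels are large trimers that pass cations when the membrane is tensed. TRPV channels pass calcium and other cations and respond to heat, ligands, swelling or stretch, depending on the member. The TREK and TRAAK channels are potassium leak channels that open on stretch and hold the cell near its resting potential, and TMEM63 proteins belong to the OSCA family of osmosensitive cation channels. In the retina, TRPV4 and TREK-1 are known from Müller glia and retinal ganglion cells (RGCs).

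The libraries held 36085737 to 46481382 counts in the saline group and 13574949 to 19834366 in the microbead group. Mitochondrial genes took 3.19% to 3.57% of the counts in saline and 8.90% to 10.6% in microbead libraries, without overlap. The part of this difference in the results was not tested. Leaving those genes out of the library sizes left the count of channels past the threshold at 0 of the 9 fitted, *Trpv1* not being fitted. The library sizes were still scaled by edgeR in that fit, so it could show little of such a part. The library names of the 3 saline retinas belong to a different naming series from those of the 3 microbead retinas, so what goes with that series and what goes with the injection cannot be told apart. Levels are given as counts per 1000000 (CPM) of library sizes scaled by TMM, the scaling of edgeR. A count of 3 corresponded to 0.0621 to 0.0855 CPM in saline and to 0.154 to 0.216 CPM in microbead libraries. Bipolar cell marker genes, a check of the labelled tissue, summed to between 622 and 840 CPM in the 6 libraries. Saline replicate 3 stood apart in its lens marker genes, with 244 CPM against 0.866 to 19.0 CPM in the other 5 libraries. It was also highest in pigment epithelium marker genes, with 245 CPM against 12.3 to 127 CPM. Its Müller glia marker genes summed to 9324 CPM, against 4684 to 6238 CPM. Saline replicate 1 stood apart in its RGC marker genes, with 369 CPM against 903 to 1368 CPM in the others, and in its microglial marker genes, with 209 CPM against 49.4 to 113 CPM. In whole retina, fewer cells of a type and less RNA per cell cannot be told apart.

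One channel was far more abundant than the others. Divided by the exonic length of each gene in kilobases (RPKM, which allows genes of different length to be compared), *Tmem63b* was measured at 24.6, 26.6 and 30.7 RPKM in saline-injected retina. Its mean of 27.3 ± 3.13 RPKM (SD, n = 3) lay at percentile 90.7 of all tested genes and was 24.3 times that of *Trpv2*, the next in order. Over the longest coding transcript of each gene in place of all exons, it was 13.0 times that of *Kcnk2*, which was then the next. The levels of *Trpv2* (1.12 ± 0.0211 RPKM), *Kcnk2* (1.02 ± 0.184 RPKM) and *Tmem63a* (0.993 ± 0.467 RPKM) came next, and the values of neighbours in this trio overlapped. They were followed by *Trpv4* (0.574 ± 0.0799 RPKM), *Piezo1* (0.548 ± 0.0777 RPKM) and *Kcnk4* (0.462 ± 0.172 RPKM), whose neighbouring values overlapped as well. The 3 saline values of *Tmem63a* all lay above those of *Trpv4*, and those of *Kcnk4* above those of *Trpv1*. *Trpv1* (0.0526 ± 0.0431 RPKM), *Kcnk10* (0.0483 ± 0.0240 RPKM) and *Piezo2* (0.0287 ± 0.0207 RPKM) were lowest (SD, n = 3 for each), under percentile 1 of the tested genes and not separable from one another.

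In microbead-injected retina the order was the same for the first 3 and the last 3 channels, and *Kcnk4* stood next after *Kcnk2*, at 0.857 ± 0.240 RPKM (SD, n = 3), and no longer after *Piezo1*. Below *Tmem63b*, at 34.7 ± 9.50 RPKM (SD, n = 3), the values of every neighbouring pair overlapped. The order depends in part on which transcript is counted as the length: over the longest coding transcript, *Kcnk2* had a saline mean of 3.25 RPKM and stood above *Trpv2*, at 1.73 RPKM, as that transcript holds 1548 of its 4943 exonic bases.

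**Figure D1:**
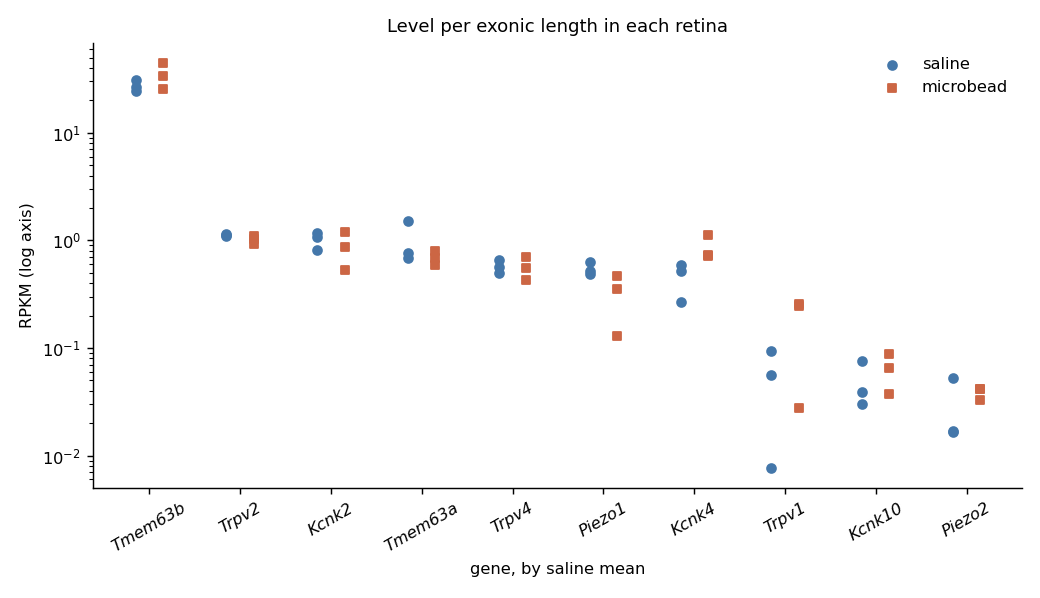
Level of each channel gene in RPKM over exonic length (log axis), in order of the saline mean; circles are the 3 saline-injected and squares the 3 microbead-injected retinas. *Tmem63b* stands above all others, from 24.6 to 44.7 RPKM, and *Trpv1*, *Kcnk10* and *Piezo2* lie lowest.

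None of the 10 channels passed the test between microbead- and saline-injected retina (0 of 10 with an adjusted p-value under 0.05 in edgeR's quasi-likelihood test), against 12.8% of the 17707 genes tested. With a change of more than 2-fold required as well, the count was also 0 of 10, against 7.05% of all tested genes. All 10 passed the filter on low counts and were tested. At an unadjusted p-value under 0.05, edgeR gave 0 of the 10 channels, against 31.4% of all tested genes. DESeq2 and limma-voom also gave 0 channels after adjustment, and 1 and 2 without it. The adjusted p-values ranged from 0.171 for *Kcnk4* to 0.971 for *Trpv4*. The fitted log2 fold change was above 0 for 5 channels and below 0 for the other 5, with a median of 0.16 against -0.03 over all tested genes. The median of its absolute value was 0.41, against 0.43 over all tested genes, and the median standard error was 0.40, against 0.26.

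A p-value over the threshold does not show equal levels, and the 95% intervals of the fold changes differ in what they leave room for. For *Trpv2*, *Trpv4* and *Tmem63b* the interval lay within 2-fold in both directions. For the other 7 channels it reached 2-fold in at least one direction. The microbead and saline values did not overlap for 2 of the 10 channels, *Piezo1* and *Kcnk4*, against 37.8% of all tested genes.

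**Figure D2:**
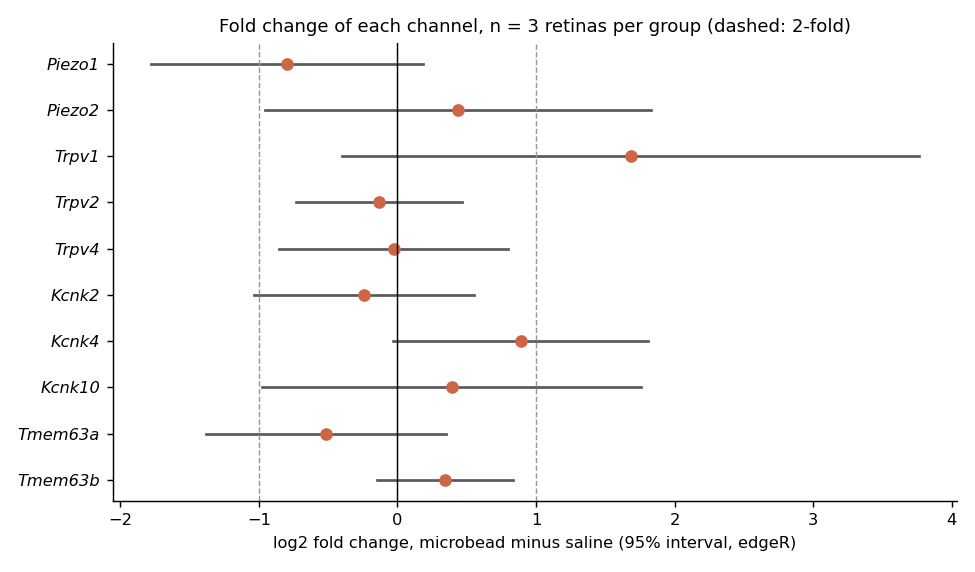
Log2 fold change of each channel (microbead minus saline) with its 95% interval from edgeR, 3 retinas per group; dashed lines mark 2-fold. Every interval includes 0, and only those of *Trpv2*, *Trpv4* and *Tmem63b* stay between the dashed lines.

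*Piezo1* (ENSMUSG00000014444.17), a channel known from endothelial cells that sense blood flow, stood at 5.12, 4.89 and 6.33 CPM in retinas injected with saline and at 1.29, 4.69 and 3.50 CPM in those injected with microbeads. All 3 microbead values were lower than all 3 saline values, but the highest of them, in replicate 2, was close to the lowest saline value. The means were 5.45 ± 0.772 and 3.16 ± 1.73 CPM (SD, n = 3 each), a log2 fold change of -0.80 (standard error 0.44, 95% interval -1.78 to 0.19, adjusted p = 0.246 from edgeR). Microbead replicate 1, with 25 counts, decided much of this value, which was -0.42 without it and -1.18 without microbead replicate 2. Endothelial marker genes summed to between 496 and 684 CPM in saline and between 290 and 442 CPM in microbead retina, also without overlap. Of the 9 endothelial markers tested, 5 fell past the threshold and 0 rose, against 6.31% and 6.46% of all tested genes. None of the 9 was at 0. The part of endothelial RNA in the *Piezo1* values was not tested.

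*Piezo2* (ENSMUSG00000041482.16), the channel of touch and proprioception, had 10 to 34 counts per library. It was measured at 0.902, 0.290 and 0.285 CPM in saline and at 0.565, 0.721 and 0.714 CPM in microbead retina. Saline replicate 1 was the highest of all 6 retinas, and the other 2 saline retinas were the lowest. The log2 fold change was 0.43 (95% interval -0.96 to 1.83, adjusted p = 0.672 from edgeR), and 1.19 (adjusted p = 0.257 from edgeR) without saline replicate 1. It was 0.16 without saline replicate 2 and 0.17 without saline replicate 3.

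*Trpv1* (ENSMUSG00000005952.15), the heat- and capsaicin-gated channel, held 13, 10 and 1 counts in the saline and 2, 13 and 14 counts in the microbead libraries. These correspond to 0.345, 0.207 and 0.0285 CPM and to 0.103, 0.938 and 0.908 CPM. Microbead replicates 2 and 3 were above every saline retina, and microbead replicate 1 was below all saline retinas but one. The log2 fold change of 1.68 (95% interval -0.40 to 3.76, adjusted p = 0.247 from edgeR) is the largest of the 10 in size and also the least certain, with a standard error of 0.93. It became 2.32 when saline replicate 1 was left out, 2.22 when microbead replicate 1 was, and 1.20 when saline replicate 3 was.

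*Trpv2* (ENSMUSG00000018507.16), a calcium-permeable cation channel also found in immune cells, was the most even of the channels between retinas. With 58 to 247 counts per library, its counting error at the smallest count was 13.1%. The SD of its microbead values was 8.30% of their mean, under that error, so the evenness cannot be read as a trait of the gene. It was measured at 4.94, 5.12 and 5.07 CPM in saline and at 4.94, 4.18 and 4.67 CPM in microbead retina. The groups met at their edges, where saline replicate 1 and microbead replicate 1 had nearly the same value. The log2 fold change was -0.13 (95% interval -0.73 to 0.47, adjusted p = 0.774 from edgeR).

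*Trpv4* (ENSMUSG00000014158.12), the osmotically and mechanically gated channel, was measured at 2.31, 2.03 and 2.68 CPM in saline and at 1.75, 2.89 and 2.27 CPM in microbead retina. The lowest and the highest of the 6 values were both from microbead-injected eyes. The means were 2.34 ± 0.325 and 2.30 ± 0.569 CPM (SD, n = 3 each), and the log2 fold change was -0.03 (95% interval -0.86 to 0.80, adjusted p = 0.971 from edgeR). Its sign turned with the scaling, being 0.02 under upper-quartile scaling.

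*Kcnk2* (ENSMUSG00000037624.15), which encodes TREK-1, was measured at 4.03, 5.80 and 5.27 CPM in saline and at 5.86, 2.60 and 4.28 CPM in microbead retina. The microbead values spanned the saline values on both sides. The log2 fold change was -0.24 (95% interval -1.03 to 0.55, adjusted p = 0.683 from edgeR), with -0.55 without microbead replicate 1 and 0.03 without microbead replicate 2.

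*Kcnk4* (ENSMUSG00000024957.8), which encodes TRAAK, had the smallest adjusted p-value of the 10 channels. It was measured at 1.19, 2.34 and 2.65 CPM in saline and at 3.24, 3.17 and 5.06 CPM in microbead retina. All microbead values were higher than all saline values, with the highest in replicate 3 and the lowest in saline replicate 1. The means were 2.06 ± 0.767 and 3.82 ± 1.07 CPM (SD, n = 3 each), and the log2 fold change was 0.89 (standard error 0.41, 95% interval -0.03 to 1.81, adjusted p = 0.171 from edgeR). Leaving out saline replicate 1 gave 0.61 and leaving out microbead replicate 3 gave 0.63. RGC marker genes summed to 369 CPM in saline replicate 1 against 1066 and 1368 CPM in saline replicates 2 and 3. In microbead replicates 1 to 3 they summed to 1238, 903 and 1140 CPM, not above both of those saline sums. The part of RGC RNA in the *Kcnk4* values was not tested.

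*Kcnk10* (ENSMUSG00000033854.9), which encodes TREK-2, was measured at 0.265, 0.663 and 0.342 CPM in saline and at 0.771, 0.577 and 0.324 CPM in microbead retina, from 5 to 32 counts. The groups overlapped over nearly the whole range, and the log2 fold change was 0.39 (95% interval -0.97 to 1.76, adjusted p = 0.699 from edgeR). It ranged from 0.07, without microbead replicate 1, to 0.87, without saline replicate 2.

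*Tmem63a* (ENSMUSG00000026519.16) was measured at 6.87, 3.09 and 3.42 CPM in saline and at 3.55, 2.67 and 3.11 CPM in microbead retina. Saline replicate 1 was far above the others, and the remaining 5 values lay close together. The log2 fold change was -0.52 (95% interval -1.38 to 0.35, adjusted p = 0.392 from edgeR), and -0.06 without saline replicate 1. That library was also the one with the high microglial marker sum of 209 CPM, and the part of microglial RNA in the *Tmem63a* value was not tested.

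*Tmem63b* (ENSMUSG00000036026.15), with 2375 to 6538 counts per library, is the channel for which counting error matters least, at 2.05% for the smallest count. It was measured at 125, 135 and 156 CPM in saline and at 131, 171 and 228 CPM in microbead retina. Microbead replicates 2 and 3 were above every saline retina, while microbead replicate 1 lay within the saline range. The means were 139 ± 15.9 and 177 ± 48.4 CPM (SD, n = 3 each), and the log2 fold change was 0.35 (standard error 0.22, 95% interval -0.14 to 0.84, adjusted p = 0.310 from edgeR). It was 0.52 without microbead replicate 1, in which case the groups did not overlap, and 0.11 without microbead replicate 3.

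**Figure D3:**
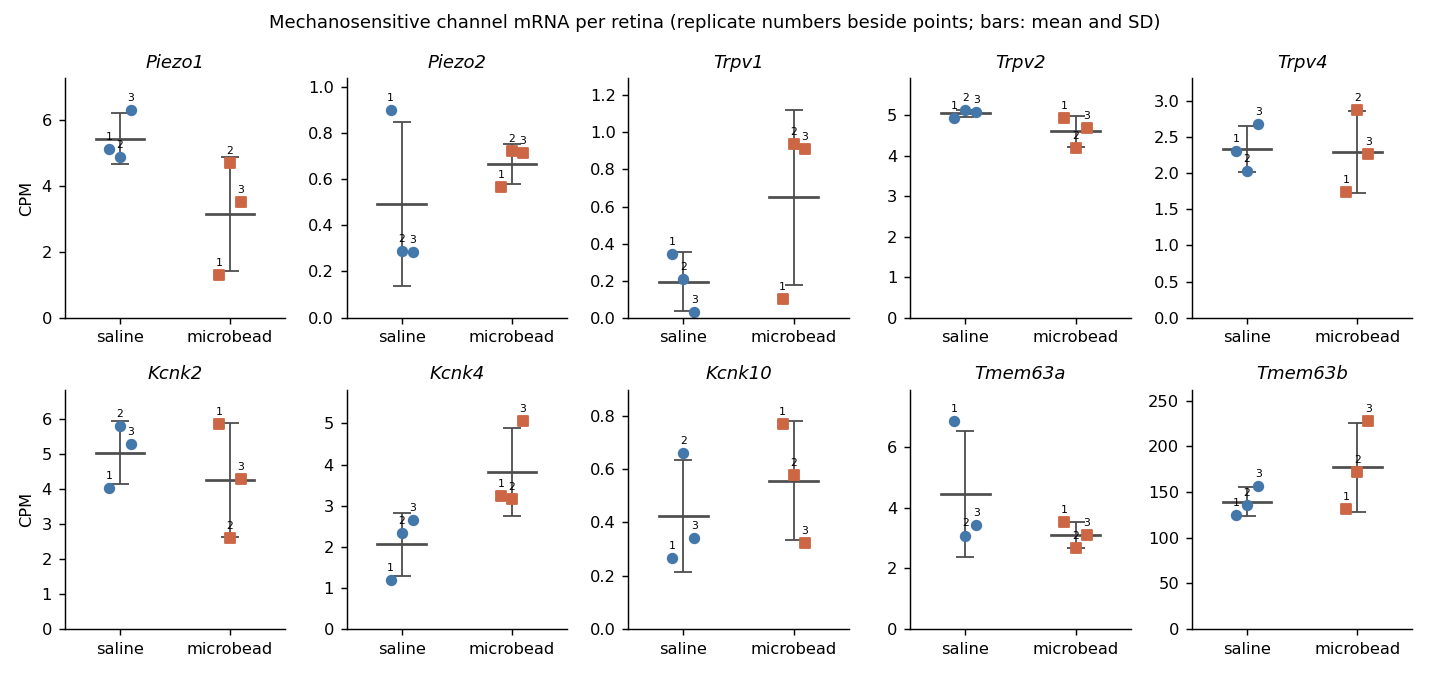
CPM of each channel in the 3 saline-injected (circles) and 3 microbead-injected (squares) retinas, with replicate numbers beside the points and the mean and SD as bars; each panel has its own axis, from 0. The groups do not overlap for *Piezo1* and *Kcnk4*, and single retinas stand apart for *Tmem63a* and *Piezo2* (saline replicate 1).

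Within the channel families, the sums were close between the groups for the *Trpv* genes and spread more widely for the others. The summed CPM of the 3 *Trpv* genes was 7.57 ± 0.214 in saline and 7.55 ± 0.665 in microbead retina. That of *Piezo1* and *Piezo2* was 5.94 ± 0.720 and 3.83 ± 1.81, that of the 3 *Kcnk* genes 7.52 ± 1.78 and 8.63 ± 1.98, and that of the *Tmem63* genes 144 ± 14.6 and 180 ± 48.2 (SD, n = 3 each). The groups overlapped for each of the 4 sums. Of the summed RPKM of the 3 *Kcnk* genes, *Kcnk4* made up 24.01%, 29.6% and 34.9% in saline and 36.3%, 54.6% and 55.6% in microbead retina. *Kcnk2* made up 73.3%, 66.2% and 62.8% and then 59.3%, 40.4% and 42.5%. Both shares were without overlap between the groups, although microbead replicate 1 lay next to saline replicate 3. *Kcnk10* held only 1.82% to 5.05% of the sum, so the shares of *Kcnk2* and *Kcnk4* nearly mirror each other and are not separate observations. The CPM values of *Kcnk4* itself did not overlap between the groups, as for 37.8% of all tested genes. The *Kcnk* shares were not tested. *Piezo1* held 79.7% or more of the Piezo sum in every retina, and *Tmem63b* held 94.1% or more of the *Tmem63* sum.

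**Figure D4:**
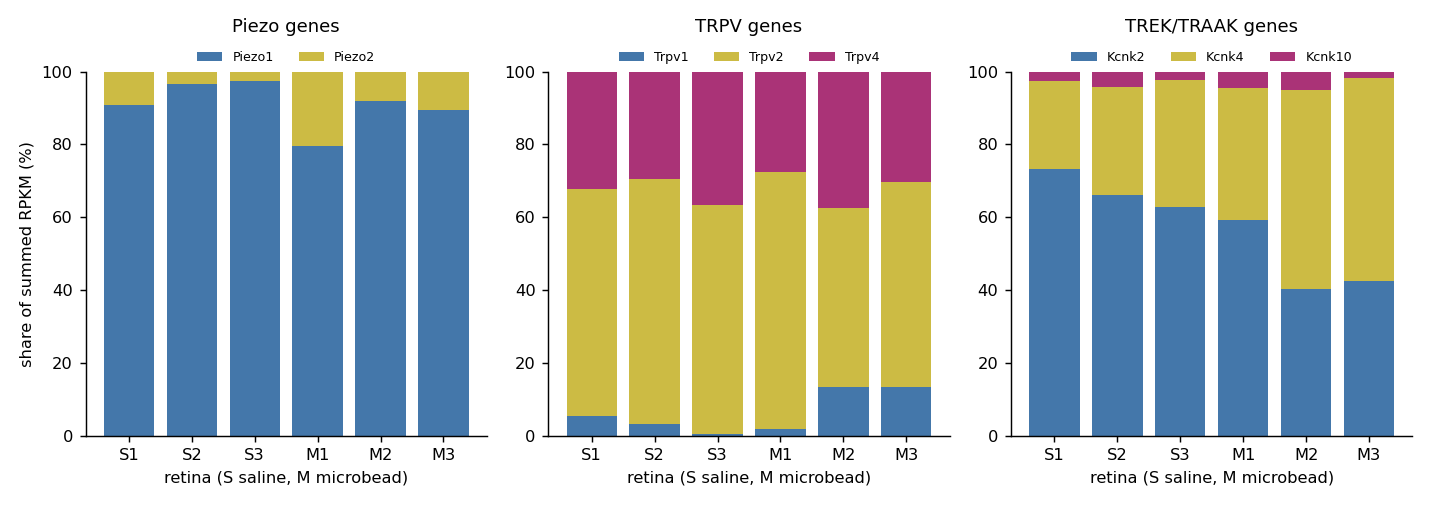
Share of each gene in the summed RPKM of its channel family (percent), for retinas S1 to S3 (saline) and M1 to M3 (microbead). The *Kcnk4* share runs from 24.01% to 34.9% in saline and from 36.3% to 55.6% in microbead retina, while *Trpv2* and *Piezo1* lead their families in all 6 retinas.

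With each library left out in turn, 0 of the 10 channels passed in any of the 6 edgeR fits, with 0 to 2 at an unadjusted p-value under 0.05. Over all genes these fits called between 0.238%, without microbead replicate 3, and 15.1%, without saline replicate 1, so in several of them a count of 0 says little about the channels. *Piezo1* kept a log2 fold change between -1.18 and -0.42, *Kcnk4* between 0.61 and 1.10, and *Trpv1* between 1.20 and 2.32. Those of *Trpv4* and *Kcnk2* crossed 0. Without microbead replicate 1, 5 channels had no overlap between the groups, against 49.6% of the genes tested in that fit, and without saline replicate 1, 4 channels, against 51.5%.

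**Figure D5:**
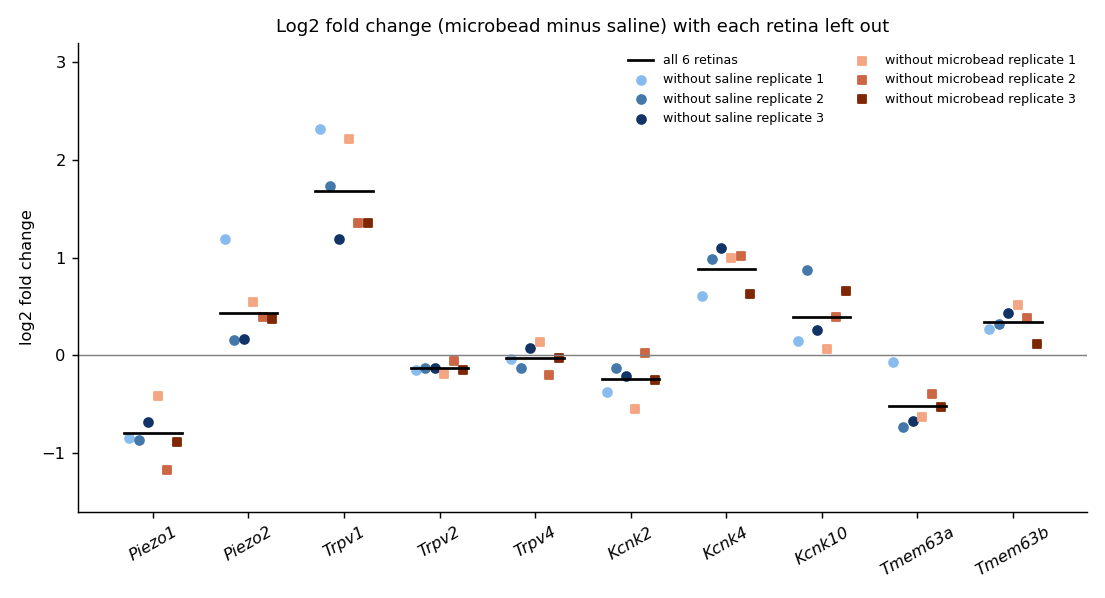
Log2 fold change of each channel (microbead minus saline) with all 6 retinas (black bar) and with each retina left out (circles, a saline retina; squares, a microbead retina). The values of *Trpv4* and *Kcnk2* cross 0, and those of all other channels keep their sign. Leaving out saline replicate 1 moves *Piezo2*, *Trpv1* and *Tmem63a* the most.

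Likeness was measured by the Pearson correlation of log2 CPM over the 6 libraries, for 15086 genes averaging 1 CPM or more. The genes most like *Kcnk4* were *Pianp* (r = 0.996), *Fbxl16* (r = 0.988) and *Sema6a* (r = 0.987). *Pianp* was at 35.6, 58.5 and 63.7 CPM in saline and at 79.6, 72.1 and 102 CPM in microbead retina, so it shared the low value of saline replicate 1 and the high value of microbead replicate 3. The genes most like *Tmem63b* were *Gak* (r = 0.994), *Mmp11* (r = 0.987) and *Pacsin1* (r = 0.985). *Pacsin1*, a regulator of vesicle endocytosis in neurons, was at 390, 483 and 527 CPM and then 405, 595 and 826 CPM. None of these 6 genes passed the test, with adjusted p-values from 0.0880 to 0.646 from edgeR. They were picked from 15086 genes for profiles like those of channels that did not pass. Neither this outcome nor their high r is therefore separate evidence. These values describe 6 libraries whose depth and naming series go with their group.

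The start sites of *Piezo1* and *Kcnk4*, whose values did not overlap between the groups, differ in sequence. The 250 bases before each start are shown for these channels, from RefSeq on GRCm38.p6, 5′ to 3′ on the gene's strand, with CpG dinucleotides in capitals. That of *Piezo1* lies at chr8:122551330-122551579 and that of *Kcnk4* at chr19:6934516-6934765, both on the minus strand.
Piezo1: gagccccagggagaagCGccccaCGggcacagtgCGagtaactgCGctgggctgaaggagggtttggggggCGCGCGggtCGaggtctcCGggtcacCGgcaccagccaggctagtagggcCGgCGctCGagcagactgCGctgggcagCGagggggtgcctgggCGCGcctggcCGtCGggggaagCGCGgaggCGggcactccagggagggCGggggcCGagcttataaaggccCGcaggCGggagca
Kcnk4: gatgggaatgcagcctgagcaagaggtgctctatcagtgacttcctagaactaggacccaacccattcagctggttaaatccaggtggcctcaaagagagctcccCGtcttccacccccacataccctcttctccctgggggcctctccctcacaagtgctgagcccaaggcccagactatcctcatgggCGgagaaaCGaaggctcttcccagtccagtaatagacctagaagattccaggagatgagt
The *Piezo1* stretch holds 26 CpG dinucleotides and is 74% G and C, and the *Kcnk4* stretch holds 3 and is 54.8% G and C. A RefSeq start site was given for 9 of the 10 channels, with 15 starts in all. In windows that also include the first 50 transcribed bases, *Piezo1*, *Tmem63a*, *Tmem63b*, *Trpv4* and *Kcnk2* had a start with at least 30 CpG, as did 11.7% of the 32851 starts of the table. *Kcnk4*, *Trpv1* and *Trpv2* had a start with at most 5 CpG, as did 43.6% of all starts, and so did 1 of the 4 starts of *Kcnk2*. The GC box GGGCGG was found on either strand in the windows of *Piezo1*, *Kcnk4*, *Kcnk2*, *Kcnk10*, *Tmem63a*, *Tmem63b* and *Trpv4*, and in 35.7% of all windows. The TATA box TATAAA was found on either strand for *Piezo1* and *Trpv2*, and in 13.6% of all windows. All these shares are of single starts, while a channel is named if any of its starts qualifies, so they are not directly comparable. The 5 channels with a start of at least 30 CpG had the highest, and the third to the sixth highest, saline RPKM of the 10 over exonic length. Over the longest coding transcript they ranked 1, 2, 4, 6 and 7, and *Kcnk4* ranked 5. This is a description of 9 genes and was not tested.

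Some reads of the channels can belong to neighbouring genes. *Piezo1* lies on the minus strand of chromosome 8 of GRCm38 from 122481698 to 122551329 and encodes 2547 amino acids in 51 exons. The 3′ end of *Ctu2*, a tRNA-modifying enzyme on the opposite strand, covers 24.6% of its exonic bases. *Ctu2* was at 13.0 to 21.0 CPM in the 6 libraries, above *Piezo1* in each. *Kcnk4* lies on the minus strand of chromosome 19 from 6923966 to 6934515, and *Tex40* (also *Catsperz*) overlaps 13.1% of its exonic bases on the same strand, with 4 to 34 counts. *Kcnk2*, on chromosome 1 from 189207930 to 189402273, shares 12.2% with an antisense RNA that held at most 3 counts in any library. *Tmem63b*, on chromosome 17 from 45660171 to 45686905, shares 5.65% with the antisense RNA *Gm16172*, at 0.142 to 1.27 CPM in saline and 1.85 to 4.62 CPM in microbead retina (log2 fold change 2.27, adjusted p = 0.0588 from edgeR), and 2.08% with *Mrpl14*. Without the strand setting of the count, reads from the opposite-strand stretches cannot be told apart. Reads from the stretch that *Kcnk4* shares with *Tex40* cannot be told apart by strand under any setting. Of the remaining channels only *Tmem63a* (3.50%) overlapped the exons of another gene. *Trpv1* and *Trpv2* on chromosome 11, *Trpv4* on chromosome 5, *Kcnk10* on chromosome 12 and *Piezo2* on chromosome 18 did not. With the overlapping genes included, 21.1% of the 100-base stretches of *Piezo1*, 10.4% of *Kcnk4*, 6.23% of *Kcnk2* and 1.92% of *Tmem63b* occur in transcripts of another gene, on either strand, and 0% of the other 6 channels.

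Over 5 lists of other channels and partners of mechanical signalling, 8 of 82 tested genes passed, or 9.76% against 12.8% of all tested genes, and 6 of the 8 fell. Of 16 further TRP channels tested, 1 rose and 1 fell, against 6.46% of all tested genes that rose and 6.31% that fell, and their median log2 fold change was -0.12. *Trpc1*, a subunit of receptor- and store-operated cation channels, fell from 142, 147 and 154 CPM in saline to 72.8, 81.7 and 67.4 CPM in microbead retina. On the log2 scale this fold change was -1.0004, with a standard error of 0.16 and an adjusted p-value of 0.0125 from edgeR, and its groups lay far apart. *Mcoln1*, the lysosomal calcium channel, rose from 57.4 ± 5.55 to 96.0 ± 19.1 CPM (SD, n = 3 each), a log2 fold change of 0.74 (adjusted p = 0.0362 from edgeR). *Trpv6* was at 2.07 ± 0.474 and 3.198 ± 0.547 CPM (SD, n = 3 each; adjusted p = 0.264 from edgeR). *Trpm1*, the transduction channel of ON bipolar cells and the most abundant of the list, was at 264 ± 42.4 and 241 ± 71.5 CPM (SD, n = 3 each; adjusted p = 0.733 from edgeR).

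Of the other potassium leak channels of the *Kcnk* family, 6 were tested and 0 passed in either direction, with a median log2 fold change of -0.78. Their summed CPM was 86.4 to 109 in saline and 59.0 to 66.2 in microbead retina, without overlap. *Kcnk3*, which encodes TASK-1 and was the most abundant, was at 46.8, 48.0 and 50.4 CPM and then 23.8, 35.3 and 33.8 CPM, a log2 fold change of -0.65 (adjusted p = 0.0557 from edgeR). Every microbead value of *Kcnk3* was lower than every saline value, as for 18.9% of all tested genes. *Kcnk3* weighs most in the summed CPM, so its lack of overlap and that of the sum are not separate observations. *Kcnk12* was at 3.42 ± 1.86 and 0.982 ± 0.499 CPM, *Kcnk9* at 2.16 ± 1.10 and 0.722 ± 0.633 CPM, and *Kcnk6* at 1.34 ± 0.997 and 0.708 ± 0.212 CPM (SD, n = 3 each; adjusted p = 0.0692, 0.145 and 0.347 from edgeR). *Kcnk12* passed without saline replicate 1 (adjusted p = 0.0171 from edgeR), with DESeq2 (0.0180) and without the filter on low counts (0.00950). Its log2 fold change of -1.80 was -0.85 with an offset for GC content and length (adjusted p = 0.262 from edgeR).

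Among 24 tested genes of other mechanotransduction and volume-regulated channels and their partners, 1 rose and 2 fell, with a median log2 fold change of -0.02. *Asic3*, an acid-sensing cation channel of sensory neurons, rose from 41.4, 30.7 and 23.9 CPM to 63.2, 72.6 and 74.6 CPM, a log2 fold change of 1.13 (adjusted p = 0.0170 from edgeR). *Lrrc8b*, a subunit of the volume-regulated anion channel, fell from 166 ± 6.32 to 92.4 ± 15.3 CPM, and *Asic4*, of the acid-sensing family, from 72.4 ± 9.82 to 45.1 ± 4.20 CPM (SD, n = 3 each; adjusted p = 0.0197 and 0.0359 from edgeR). *Tmc4* was at 1.65 ± 1.11 and 4.94 ± 1.37 CPM and *Lrrc8e* at 1.68 ± 0.380 and 0.776 ± 0.641 CPM (SD, n = 3 each; adjusted p = 0.105 and 0.245 from edgeR). *Tmc4* passed with DESeq2 (adjusted p = 0.0286).

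Of 20 tested genes of YAP/TAZ, focal adhesion and cytoskeletal signalling, 0 rose and 2 fell, with a median log2 fold change of -0.26. These were *Amotl2*, which binds YAP, from 50.4 ± 12.8 to 27.2 ± 1.49 CPM, and *Lats2*, a kinase that restrains YAP and TAZ, from 62.7 ± 6.05 to 37.3 ± 2.56 CPM (SD, n = 3 each; adjusted p = 0.0277 and 0.0231 from edgeR). Saline replicate 3 was the library with the high lens, pigment epithelium and Müller glia marker sums. In it *Cyr61*, a secreted YAP target, was at 387 CPM, against 3.05 to 9.92 CPM in the other 5. Its log2 fold change was -5.17 (adjusted p = 0.0542 from edgeR) and -0.83 without that library (adjusted p = 0.266 from edgeR). It passed in other fits that kept that library, such as the one without saline replicate 1 (adjusted p = 0.0179 from edgeR). *Tead3* was at 22.6 ± 14.3 and 54.2 ± 25.5 CPM (SD, n = 3 each; adjusted p = 0.100 from edgeR), and it passed without saline replicate 1 (adjusted p = 0.0171 from edgeR) and with DESeq2 (0.0199).

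Of the 16 calcium effector genes, 0 rose and 1 fell, with a median log2 fold change of -0.23. *Ppp3r1*, the regulatory subunit of the phosphatase calcineurin, fell from 175, 184 and 221 CPM to 143, 89.9 and 90.8 CPM (log2 fold change -0.84, adjusted p = 0.0388 from edgeR). *Pla2g4a* was at 3.34 ± 0.635 and 2.00 ± 0.960 CPM and *Nfatc1* at 2.30 ± 0.738 and 1.58 ± 0.533 CPM (SD, n = 3 each; adjusted p = 0.269 and 0.425 from edgeR). The 8 calls in these lists depended on which libraries were kept. With each library left out in turn, *Trpc1* passed in 4 of 6 fits, and *Asic3* and *Lrrc8b* in 3. *Mcoln1*, *Lats2* and *Ppp3r1* passed in 2, and *Asic4* and *Amotl2* in 1. All 8 failed without saline replicate 2 and without microbead replicate 3, in fits that called 1.68% and 0.238% of all genes. As 12.8% were called with all 6 libraries, failing there says little about these 8 genes. Their fold changes kept their sign in all 6 fits with a library left out.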

How the data were processed

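Poly(A)-enriched, stranded libraries of whole retina were sequenced as paired-end reads. The authors aligned them to GRCm38.p5 with STAR 2.5.3a and the GENCODE vM12 annotation, counted reads per gene with featureCounts, and deposited these raw counts. The strand setting and the treatment of reads with several positions are not given in the sources used here. The deposited table also holds the authors' DESeq2 comparison (a mean, fold changes, p-values and calls), which was not used.

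Groups were taken from the sample records. Low genes were removed by filterByExpr (at least 10 counts and a total of at least 15), library sizes were scaled by TMM, and groups were compared with edgeR (4.0.16, under R 4.3.3) by its two-sided quasi-likelihood test, with Benjamini-Hochberg adjustment over 17707 genes and a threshold of 0.05. The 95% intervals are the log2 fold change and its standard error with the t quantile of that test. The floor of 3 counts covers counting error only. RPKM used exon lengths of GENCODE vM21, and 99.7% of tested genes had one. The steps were tested on simulated data. The channels and lists were chosen with earlier results of these data known. Named beside the 10 channels are the 3 genes with the largest fold change in each list (mean of at least 1 CPM) and the 3 most alike to *Kcnk4* and *Tmem63b*. *Kcnk3*, *Trpm1*, *Lrrc8b*, *Asic4*, *Lats2* and the overlapping genes were named after their values were seen. Alternatives were DESeq2 1.42.0, limma-voom (limma 3.58.1), other scalings and filters, a replicate block, an offset for GC content and length, each library left out and, chosen after seeing the data, counts thinned to the smallest total.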

Additional observations from a re-analysis of the deposited data

How the results depend on the processing

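The count of 0 channels past the threshold held in all 18 other fits, which called 0.238% to 15.6% of all genes and in which the smallest adjusted p-value of any channel was 0.129 and at most 2 channels had an unadjusted p-value under 0.05. The count over all genes was 2261, 1248 with a change of more than 2-fold as well, 3720 without a filter, 3621 with DESeq2, 905 with the replicate block and 1224 with the block and the offset for GC content and length. With each library left out it ran from 46, without microbead replicate 3, to 2621, for saline replicate 1, and was 293 or 1480 when saline replicate 2 or 3 was left out and 748 or 768 when microbead replicate 1 or 2 was. No pairing by the numbers 1 to 3 was seen. The deviations of same-numbered libraries from their group means correlated at -0.0351, 0.136 and 0.00997, and those of differently numbered libraries at -0.196 to 0.143. With 3 libraries per group, these values cannot exclude a pairing. The block moved no channel past the threshold. Under the block, which called 5.11% of all genes, *Mcoln1*, *Asic4*, *Amotl2*, *Lats2* and *Ppp3r1* were no longer past it. The count of 2 channels without overlap ran from 2 to 5 with a library left out, in fits where 42.3% to 51.5% of all genes had none, and the family sums moved by less than the spread between retinas. The log2 fold change of *Trpv4* reversed to 0.0171 under upper-quartile scaling, 0.0409 without the 100 most abundant genes in the library sizes and 0.25 with thinned counts, and was between -0.20 and 0.14 with a library left out. That of *Kcnk2* was between -0.55 and 0.0287, the latter without microbead replicate 2. Over the longest coding transcript, saline means were 0.663 RPKM for *Piezo1*, 1.73 for *Trpv2*, 0.725 for *Trpv4*, 3.25 for *Kcnk2*, 1.17 for *Kcnk4* and 42.3 for *Tmem63b*. *Trpv1* was not fitted with at least 10 counts in every library, with thinned counts or with library sizes without the 100 most abundant or the mitochondrial genes, *Kcnk10* not with the first 2 of these and *Piezo2* not with thinned counts. The smallest counts of *Trpv1*, *Kcnk10* and *Piezo2* were 1, 5 and 10, and depth and the spread between retinas were not separated for them.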
